A study of Mus musculus with 24 samples.

Results

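In mouse fibroblasts treated with halofuginone, the RNA found in heavy polysomes was compared with the total RNA of the same kind of cells. The comparison took 6 of the 24 libraries of the series, 3 of the heavy polysome pool and 3 of total RNA, chosen by treatment and pool as the column headers of the count table give them and compared without pairing. NIH/3T3 is an established line of mouse embryonic fibroblasts, so every library comes from 1 cell line. The design text speaks of biological triplicates, and p-values here measure the spread between these libraries, which may be technical in part. Per the labels, cells were kept for 24 h at 37 °C with halofuginone at 100 nM, or with PBS as vehicle. The heavy pool combined the gradient fractions with more than 5 ribosomes per mRNA, and further pools held free and light material. The headers of 1 halofuginone heavy library and 1 halofuginone total library name a dose of 50 nM, against the 100 nM of the labels. These are called the 50 nM pair and are shown apart. The other headers carry replicate tags: 2 and 4 in heavy polysomes, 2 and 3 in total RNA. The heavy pool held fractions 7 to 11 in the 50 nM library and 14 to 21 in the tagged libraries.

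Halofuginone occupies the prolyl-tRNA synthetase site of Eprs, a bifunctional enzyme that loads glutamate and proline onto their tRNAs. Uncharged tRNA activates the kinase Gcn2, which phosphorylates the initiation factor eIF2alpha, lowers initiation on most mRNAs and favours Atf4, whose reading frame lies behind short upstream reading frames. An mRNA sediments deeper in a sucrose gradient the more ribosomes it carries, and a longer reading frame has room for more of them. A heavy-to-total ratio therefore describes how much of a transcript's share of cell RNA is found again among the most ribosome-laden mRNAs. It says nothing of the amount of RNA per cell, because each library is scaled to its own total. In such bulk pools, fewer cells with a transcript and less of it in each cell cannot be told apart.

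The 3 total RNA libraries held 22019630 to 24970047 counts and the 3 heavy libraries 16184418 to 21058160. Library preparation selected poly(A) RNA. All 12 fibroblast markers reached a mean of 5 CPM (counts scaled to a common library size, with TMM factors of the comparison), while none of 6 epithelial and none of 6 leukocyte markers did. Vwf and Lpl reached it among the endothelial and adipocyte markers. The 3 heavy libraries carried 0.354% to 0.746% of counts in mitochondrially encoded genes, against 2.23% to 3.42% in total RNA. The total RNA libraries of tags 2 and 3 resembled each other most: their counts differed with a mean chi-square of 3.12 per gene, against 139 to 359 for the other pairs within a group. These 2 libraries may come from 1 culture, which was not tested. They are counted as 2, as the labels have it. Summed as 1 library, a choice made after their values were seen, they leave 46 called genes in place of 2307, so n = 3 and each adjusted p below rest on their being separate samples.

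The halofuginone libraries also differed in the response genes. Scaled to library totals, the 39 genes of a list of Atf4 targets and amino acid response genes summed to 8929 and 8770 CPM in total RNA of tags 2 and 3 but to 4280 CPM in the 50 nM total library, beside 3267 to 4008 CPM in the 3 vehicle total libraries. In heavy polysomes the sum was 8941 CPM in the 50 nM library and 11820 CPM with tag 4 but 3699 CPM with tag 2, beside 4025 to 5411 CPM with vehicle. The 50 nM total library thus lay near the vehicle total libraries, and the tag 2 heavy library lay below the 3 vehicle heavy libraries. The labels of these 2 libraries may be wrong, which was not tested. If they are, the 50 nM and tag 2 pair ratios below do not compare 2 pools of halofuginone cells. The 3 against 3 fit and the test of the difference between treatments hold these libraries too. In that case the ratios, calls and adjusted p from both would be affected as well. Both libraries stay under their labels.

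Of 12595 genes tested, 2307 (18.3%) differed between heavy polysomes and total RNA at an adjusted p below 0.05 by edgeR's quasi-likelihood test. Their number was 969 (7.69%) higher and 1338 (10.6%) lower in heavy polysomes. The median log2 ratio over all genes was 0.01. Scaled to library totals alone, the split was 532 higher (4.22%) and 1871 lower (14.9%), with the median of all genes at -0.23, so each ratio below is relative to the bulk of genes. All 969 genes called higher also had a ratio above 0 in the 50 nM pair, and 1337 of the 1338 called lower had one below 0. That pair is part of the fit that chose these genes, so this agreement is partly built in. All 3 library ratios exceeded a log2 of 1 in 480 of the genes called higher, and 982 of those called lower were under -1 in all 3. Groups did not overlap in 2481 genes on the higher side (19.7%) and 2655 on the lower side (21.1%).

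The number of calls rested on single libraries. Without either of the near-identical total RNA libraries it was 46 (0.355%) and 45 genes (0.347%), all lower in heavy polysomes, so that no gene list had a member called higher, and without the 50 nM heavy library or the tag 4 heavy library it was 0 (0%), although 3921 and 4365 genes had an unadjusted p below 0.05. Without the 50 nM total library it was 5380 (41%), without the tag 2 heavy library 1307 (9.95%), and in the 4 tagged libraries alone 4607 (35.8% of those tested). With both libraries that lay near the vehicle levels left out, a choice made after their values were seen, it was 6290 (49% of those tested). The fits without the 50 nM total library, the tagged one included, keep only the near-identical libraries as total RNA. Their larger numbers of calls therefore come with little spread in that group. In no fit of this paragraph did any of the 2307 genes have the opposite sign. Each fit shares libraries with the one that chose these genes, so the agreement is partly built in. At an unadjusted p below 0.05, 2307 of 2307 remained without the 50 nM heavy library and again without the tag 4 heavy library. The counts of called genes below are those of the 3 against 3 fit.

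The ratio was lower the longer the coding sequence, apart from the shortest genes. The 11124 nuclear protein-coding genes with a complete coding sequence were split by length into 10 classes of nearly equal size. The median log2 ratio was 0.57 in class 2 (546 to 753 nt) and smaller in each further class, down to -1.09 in class 10 (3462 to 26400 nt). In class 10, 424 of 1111 genes were called lower and 1 was called higher. In class 3, 212 of 1107 were called higher and 37 lower. The Spearman correlation of ratio and coding length across genes was -0.44, and it was -0.29 in the 50 nM pair, -0.47 in the tag 2 pair and -0.34 between heavy tag 4 and total tag 3. Genes are not independent replicates, and these values describe the libraries. Class 10 was also the lowest in the halofuginone free and light pools, with median log2 ratios to total RNA of -2.08 and -1.40.

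**Figure D1:**
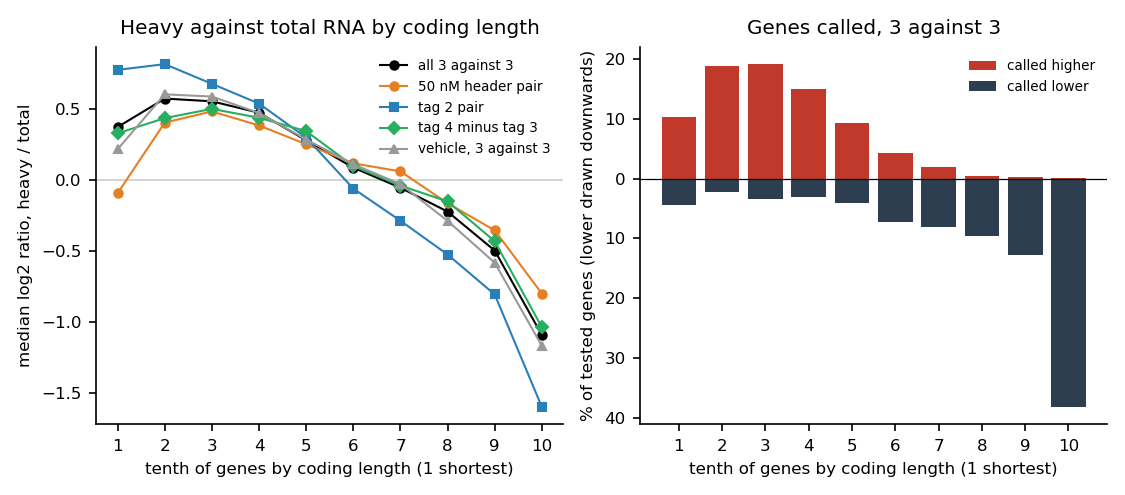
Left, median log2 ratio of heavy polysomes to total RNA (vertical axis) in 10 classes of nuclear coding genes by coding length (horizontal axis), for all halofuginone libraries, for each pair of them and for vehicle; right, the percentage of tested genes called in each direction in the 3 against 3 halofuginone fit. All lines fall from class 3 onwards, and class 1 lies at 0.37 over all libraries but at -0.09 in the 50 nM pair.

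Class 1 (78 to 543 nt) departed from this order, with a median of 0.37, 116 genes called higher and 50 lower. Its median was -0.09 in the 50 nM pair, 0.77 in the tag 2 pair and 0.33 between tags 4 and 3. In the free pool its median ratio to total RNA was 1.54 and in the light pool 1.46, the highest of the 10 classes in each. In class 1, 715 of 1118 genes were above 0. The reading frames of 4 well-known small proteins are shown as examples of such short frames. They were chosen after their values were seen, and all 4 have ratios below 0, unlike most of the class. Their coding sequences follow from 5′ to 3′, from GENCODE M21 on GRCm38, with the start and stop codons in capitals.
Rpl41 (chromosome 10, 78 nt): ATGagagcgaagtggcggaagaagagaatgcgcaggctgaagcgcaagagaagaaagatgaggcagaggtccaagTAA
Ost4 (chromosome 5, 114 nt): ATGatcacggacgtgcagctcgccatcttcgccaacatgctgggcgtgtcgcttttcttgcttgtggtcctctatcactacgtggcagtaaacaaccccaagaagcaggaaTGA
Tmsb4x (chromosome X, 135 nt): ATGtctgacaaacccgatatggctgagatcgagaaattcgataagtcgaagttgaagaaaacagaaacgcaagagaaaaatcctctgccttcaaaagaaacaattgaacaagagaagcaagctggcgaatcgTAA
Rpl39 (chromosome X, 156 nt): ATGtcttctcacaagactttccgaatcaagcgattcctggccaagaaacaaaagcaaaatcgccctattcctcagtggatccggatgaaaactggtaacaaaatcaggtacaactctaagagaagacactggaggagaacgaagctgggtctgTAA

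Rpl41, a protein of the large ribosomal subunit made of 25 amino acids, had 1692, 402 and 374 CPM in total RNA (50 nM, tag 2 and tag 3, the order used throughout) and 409, 485 and 352 CPM in heavy polysomes (50 nM, tag 2 and tag 4). The groups overlapped and the log2 ratio was -0.99 ± 0.60 (SE, adjusted p = 0.273). It lay 3.76 above total RNA on the log2 scale in the free pool. Ost4, a subunit of the oligosaccharyltransferase, had a log2 ratio of -0.37 ± 0.38 (adjusted p = 0.512) and Rpl39 one of -0.46 ± 0.43 (adjusted p = 0.473). Tmsb4x, which encodes the actin-binding thymosin beta 4 peptide, was called lower: 208, 367 and 342 CPM in total RNA stood against 117, 98.2 and 162 CPM in heavy polysomes (log2 ratio -1.28 ± 0.34, adjusted p = 0.0398). Its 2 groups did not overlap, whereas those of Rpl41, Ost4 and Rpl39 did.

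At the other end stood mRNAs of giant proteins. Of 23 tested genes for giant cytoskeletal, motor and scaffold proteins, 22 were called lower (95.7%, against 10.6% of all genes) and none higher. Their median coding length was 13935 nt and the list's median log2 ratio was -2.25 (all genes 0.01). All pools of the gradient were low: on a common scale of all 12 halofuginone libraries, the median against total RNA was -3.22 in the free, -3.02 in the light and -2.43 in the heavy pool. Syne1 encodes a spectrin-repeat protein that links the nuclear envelope to the cytoskeleton, with a coding sequence of 26400 nt on chr10:5020917-5551482. It had 77.4, 218 and 250 CPM in total RNA and 12.7, 8.47 and 6.35 CPM in heavy polysomes. Each heavy library was below each total library (log2 ratio -4.31 ± 0.54, adjusted p = 0.0126). Dst, a cytolinker of hemidesmosomes and microtubules, had a log2 ratio of -3.45 ± 0.41 (adjusted p = 0.0126). Fat1, a giant cadherin, was the member not called (log2 ratio -0.83), with 0.44 in the 50 nM pair and -2.24 in the tag 2 pair. Without the total libraries of tag 2 or tag 3 in turn, 4 and 3 of the 23 were still called, with list medians of -2.23 and -2.17.

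RNAs that encode no protein were the other large group low in heavy polysomes. Of 11 tested nuclear and imprinted long noncoding RNAs, 7 were called lower (63.6%, against 10.6% of all genes) and none higher (median -2.69). Malat1, a nuclear speckle RNA on chr19:5795690-5802672, had 403, 749 and 1075 CPM in total RNA and 6.99, 8.62 and 4.47 CPM in heavy polysomes. The groups stood far apart, at a log2 ratio of -6.79 ± 0.55 (adjusted p = 0.00954), the lowest adjusted p in the comparison. Neat1, the scaffold of paraspeckles, went from 282, 176 and 231 to 9.49, 13.5 and 15.2 CPM (log2 ratio -4.17 ± 0.35, adjusted p = 0.00954). Tug1 was the member nearest to 0, at -0.71, and its groups overlapped. Over all annotated lincRNAs, 59 of 180 were called lower and 1 higher (median -1.31), and for antisense RNAs the counts were 41 and 2 of 196 (median -0.996). The shares called lower were 32.8% and 20.9%, against 10.6% of all genes.

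Among the genes with the lowest ratios named by rule, 5 were noncoding. Kcnq1ot1, the imprinted antisense RNA of the Kcnq1 locus (chr7:143203458-143296549), had 6.26, 19.4 and 26.2 CPM in total RNA and 0.213, 0.312 and 0.144 CPM in heavy polysomes (log2 ratio -6.21 ± 0.71, adjusted p = 0.0126). Mir17hg and Dnm3os, both hosts of microRNAs, had log2 ratios of -6.18 ± 0.88 and -5.70 ± 0.89, and Firre, an X-linked nuclear RNA, one of -4.91 ± 0.62. The coding genes of this set were Spaca6, Masp2 and Zfp971, at -5.29, -5.12 and -5.01. The naming rule took only genes whose groups did not overlap, so in all 8 no heavy library reached the lowest total library. Predicted genes, RIKEN clones and pseudogenes were left out by the rule, among them 2610203C20Rik with a log2 ratio of -6.05. Heavy levels of Kcnq1ot1, Mir17hg, Masp2 and Zfp971 were at most 0.364 CPM, so the size of their ratios rests on few counts.

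**Figure D2:**
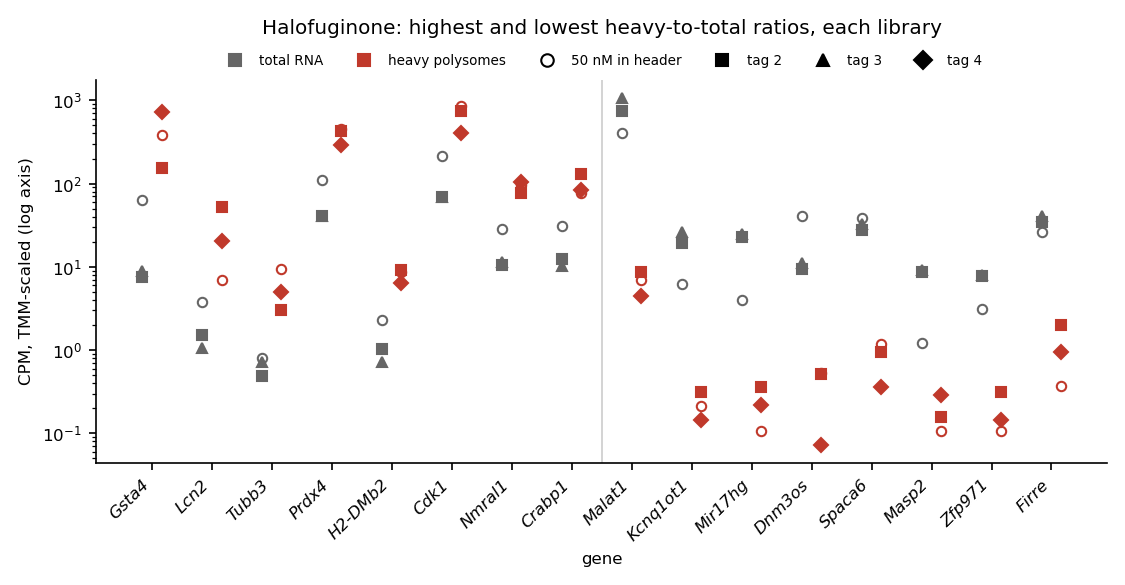
CPM on a log axis (vertical) of the 8 genes with the highest and the 8 with the lowest heavy-to-total ratio chosen by rule (horizontal axis), each symbol 1 halofuginone library, grey for total RNA and red for heavy polysomes, open circles for the 50 nM pair. The rule took only genes whose red and grey symbols do not overlap, and left out predicted genes, RIKEN clones and pseudogenes. Malat1 lies at 403 to 1075 CPM in total RNA and 4.47 to 8.62 CPM in heavy polysomes.

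Host RNAs of small nucleolar RNAs, many of which are exported and end in nonsense-mediated decay, had 7 of 15 tested members called lower and none higher (median -1.74). The share called lower was 46.7%, against 10.6% of all genes. Snhg20 had 13.7, 13.4 and 13.6 CPM in total RNA and 0.693, 0.104 and 1.16 CPM in heavy polysomes (log2 ratio -4.40 ± 0.72, adjusted p = 0.014). Gas5, a host RNA with a pyrimidine-rich 5′ end, had 345, 1112 and 1106 CPM against 109, 129 and 258 CPM (log2 ratio -2.37 ± 0.56, adjusted p = 0.0285). No heavy library of Snhg20 or Gas5 reached the lowest total library. Snhg1 was not called (log2 ratio -2.16 ± 0.94, adjusted p = 0.14). In the free pool the median of the list was 1.62 above total RNA, the opposite side from the heavy pool, and in the light pool 1.02 above.

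The mRNAs of the mitochondrial genome are translated by ribosomes inside the organelle and not by those of the cytosol. Of 9 genes of that genome tested, ribosomal RNAs included, 8 were called lower in heavy polysomes and none higher (median -2.45). The share called lower was 88.9%, against 10.6% of all genes. For mt-Nd5, a subunit of complex I, total RNA held 1997, 4174 and 4350 CPM and heavy polysomes 124, 320 and 219 CPM (log2 ratio -3.99 ± 0.51, adjusted p = 0.0126). The 2 groups did not overlap. mt-Cytb, the cytochrome of complex III, had the smallest difference, at -1.21 ± 0.35 (adjusted p = 0.0488). The median of these genes was 3.81 above total RNA in the free pool and 0.37 above it in the light pool.

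KRAB and related zinc finger genes encode a large class of DNA-binding repressors, many of them of low abundance. Of 131 tested, 37 were called lower (28.2%, against 10.6% of all genes) and none higher, with a median of -1.45. In 81 the groups did not overlap on the lower side, which held for 21.1% of all genes. Zfp971 stood at 3.13, 7.79 and 8.03 CPM in total RNA and 0.107, 0.312 and 0.144 CPM in heavy polysomes. The list's medians were alike in the pairs, at -1.34, -1.39 and -1.46. Their coding sequences had a median of 1730 nt and a GC content of 42%, against 1395 nt and 52.7% for all genes tested.

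The ratio also differed by GC content. Of 10 classes by GC of the coding sequence, the lowest (34.4% to 44.1%) had a median log2 ratio of -0.77, with 29 genes called higher and 242 lower. In the highest the median was 0.28, with 96 called higher and 42 lower. The shares called higher were 2.61% in the lowest class and 8.63% in the highest, against 7.69% of all genes. Those called lower were 21.7% and 3.77%, against 10.6%. With 3 classes of each property, long coding sequences of low GC had a median of -1.03 (2 higher and 410 lower of 1339) and long ones of high GC -0.14 (10 and 98 of 1124). Among short coding sequences the medians were 0.33, 0.59 and 0.54 from low to high GC, so the order did not hold there. In the 50 nM pair, short coding sequences had 0.28 at low GC and 0.20 at high GC. The part of GC content in the ratios was not tested.

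Since halofuginone blocks proline charging, the share of proline codons was examined. Across genes its Spearman correlation with the heavy-to-total ratio was -0.02. The 1113 genes richest in proline (9.38% of residues or more) had a median log2 ratio of 0.02. Of these, 54 were called higher (4.85%, against 7.69% of all genes) and 100 lower (8.98%, against 10.6%). Serine-rich genes had the lowest median of the 20 amino acids (-0.35, 25 higher and 191 lower, median coding length 1782 nt). The highest belonged to alanine-rich genes (0.40, 156 higher and 56 lower, 993 nt).

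Of 31 tested SR proteins, CLK kinases and related genes, 6 were called lower (19.4%, against 10.6% of all genes) and 1 higher (median 0.08). Ogt, the O-GlcNAc transferase whose transcripts are known to retain an intron in the nucleus, had 152, 331 and 380 CPM in total RNA and 25.9, 24.6 and 30.5 CPM in heavy polysomes, with no overlap (log2 ratio -3.41 ± 0.41, adjusted p = 0.0126). Rsrp1, Clk4 and Clk1 were also lower, at -2.83, -1.98 and -1.83. Srsf9 was the member called higher (1.38 ± 0.27, adjusted p = 0.0179).

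The genes whose call did not depend on which of the 2 near-identical total libraries was kept numbered 45, all lower in heavy polysomes, with log2 ratios from -7.57 to -2.52. They comprised 26 protein-coding genes and 19 others. Of the 25 with a nuclear coding sequence, 21 exceeded 3000 nt and the median was 7440 nt. Besides Malat1, Neat1, Syne1 and Dst they included Atm, the DNA damage kinase (-4.24), Ranbp2, a nuclear pore component (-4.04), and Cep290, a centrosomal protein (-4.20). Rsrp1, with 897 nt, and Pnisr, with 2445 nt, were among the 4 at or under 3000 nt.

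**Figure D3:**
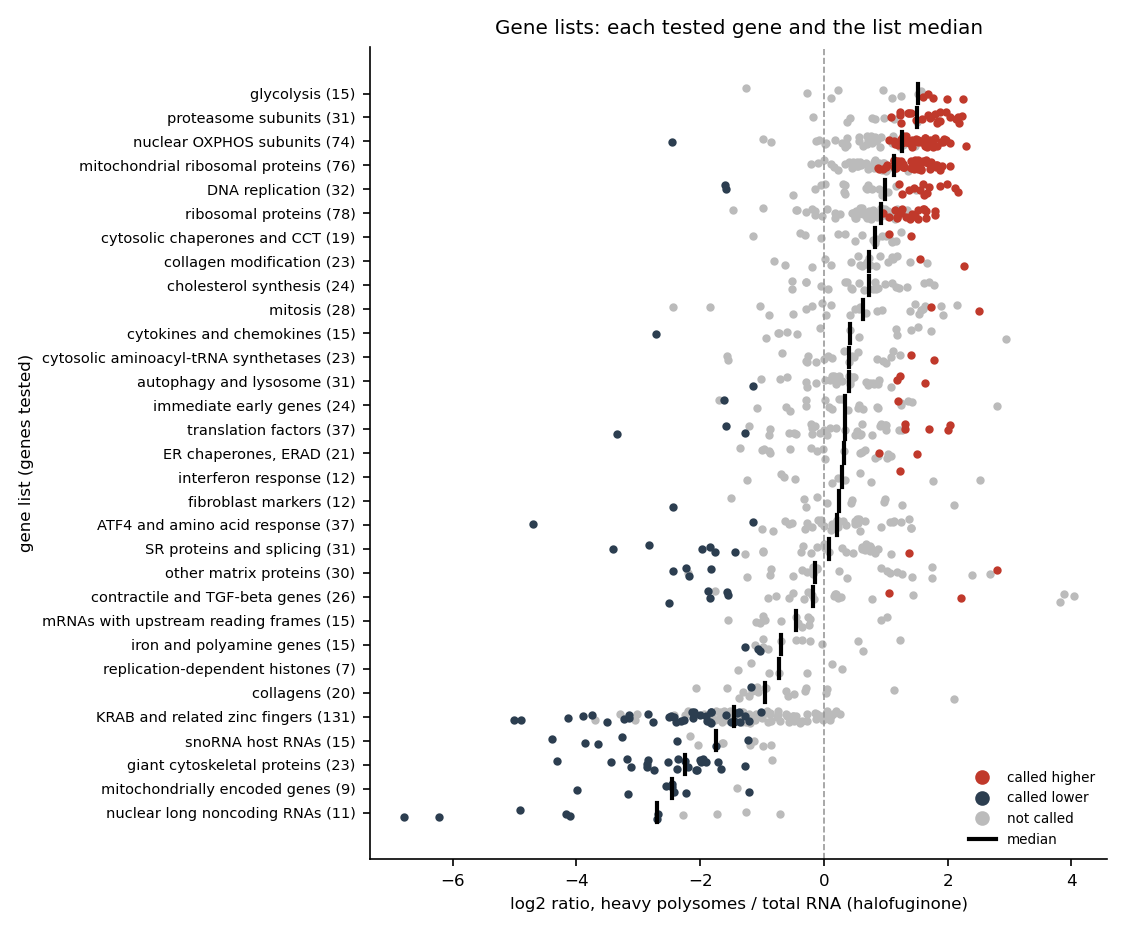
Log2 ratio of heavy polysomes to total RNA with halofuginone (horizontal axis) for each tested gene of 31 lists (vertical axis, number of genes tested in brackets), ordered by the list median (black bar). Red points were called higher and dark points lower in the 3 against 3 fit; the lists at the top are proteasome, glycolysis and mitochondrial proteins and those at the bottom giant proteins and noncoding or organellar RNAs.

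On the higher side stood mRNAs of housekeeping complexes with reading frames of short to middle length. The proteasome, which degrades ubiquitin-tagged proteins, had 23 of 31 tested subunits called higher (74.2%, against 7.69% of all genes) and none lower (median log2 ratio 1.504). Psmb7, a catalytic subunit of its core, had 121, 90.7 and 88.1 CPM in total RNA and 504, 391 and 513 CPM in heavy polysomes. Every heavy library exceeded every total library (log2 ratio 2.23 ± 0.29, adjusted p = 0.0126). The list medians of the pairs were 1.49, 1.53 and 1.86. The regulatory-particle subunits Psmd1 and Psmd11 were at -0.17 and 0.37, and neither was called. In the free and light pools the proteasome median was 0.09 and 0.02 relative to total RNA.

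Mitochondrial ribosomal proteins are made in the cytosol and imported. Of 76 tested, 42 were called higher (55.3%, against 7.69% of all genes) and none lower (median 1.14). The pair medians were 1.05, 1.11 and 1.21. On a common scale of all 12 halofuginone libraries, the median above total RNA was 1.08 in the free, 0.95 in the light and 1.04 in the heavy pool. Mrpl14 had 41.2, 19.6 and 19.3 CPM in total RNA and 113, 124 and 94 CPM in heavy polysomes (log2 ratio 2.04 ± 0.37, adjusted p = 0.0165). Nuclear genes for oxidative phosphorylation had 37 of 74 members called higher (50%, against 7.69% of all genes) and 1 lower (median 1.27). On the scale of all 12 halofuginone libraries their medians above total RNA were 1.55 in the free, 1.64 in the light and 1.21 in the heavy pool. Atp5h, a stalk subunit of ATP synthase, rose from 225, 98.3 and 94.6 CPM to 629, 747 and 672 CPM, with the groups well apart (log2 ratio 2.29 ± 0.41, adjusted p = 0.0161). The member called lower was Atp5l, another ATP synthase subunit with a coding sequence of 312 nt (-2.45 ± 0.51, adjusted p = 0.021). Its levels of 4.72 to 6.49 CPM in total RNA were low for the complex, and reads shared with copies of a gene may be split by the counting.

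Of 15 glycolysis genes, 5 were called higher (33.3%, against 7.69% of all genes) and none lower (median 1.52). They were Gapdh, Aldoa, Ldha, Eno1 and Tpi1, with log2 ratios of 2.24, 1.99, 1.76, 1.68 and 1.60. Gapdh had 1333, 604 and 581 CPM in total RNA and 3502, 3376 and 5044 CPM in heavy polysomes, without overlap. The hexokinases Hk2 and Hk1, which start the pathway, were at -1.26 and -0.27, and neither was called. The list median was 0.63 in the 50 nM pair and 2.19 between tags 4 and 3.

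Cytosolic ribosomal proteins carry a terminal oligopyrimidine start and are a classic case of mRNAs that move between free particles and polysomes. Of 78 tested, 21 were called higher (26.9%, against 7.69% of all genes) and none lower, with a median of 0.92. Their summed level was 68044, 42620 and 40570 CPM in total RNA and 92235, 82924 and 107169 CPM in heavy polysomes. Rpl11, of the large subunit, had 574, 216 and 214 CPM in total RNA and 1272, 1119 and 1090 CPM in heavy polysomes (log2 ratio 1.79 ± 0.45, adjusted p = 0.0336). Pair medians were 0.50 in the 50 nM pair, 1.11 with tag 2 and 1.42 between tags 4 and 3, and in the 4 tagged libraries alone 54 were called higher (17.6% of all genes there). The free pool stood higher still, with a list median of 2.69 above total RNA. Many of these genes have processed pseudogenes, so reads may be shared. In that class 49 of 335 tested were called higher (14.6%, against 7.69% of all genes) and 9 lower (median 1.06).

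Among translation factors, Eif3k, a small subunit of the eIF3 scaffold, was higher in heavy polysomes: 170, 93.6 and 86.7 CPM in total RNA stood against 498, 406 and 530 CPM (log2 ratio 2.03 ± 0.36, adjusted p = 0.0157). Eif3a, the largest subunit of the same complex with a coding sequence of 4035 nt, was lower, at 623, 1049 and 1099 CPM against 115, 64.9 and 92.8 CPM (log2 ratio -3.34 ± 0.38, adjusted p = 0.0126). In both genes the groups did not overlap. In all, 5 of 37 translation factors were called higher (13.5%, against 7.69% of all genes) and 3 lower (8.11%, against 10.6%), with a median of 0.34.

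DNA replication genes had 13 of 32 members called higher (40.6%, against 7.69% of all genes) and 2 lower (6.25%, against 10.6%). Their median was 0.99, with pair medians of 1.01, 1.13 and 1.15. Tyms, which makes thymidylate, had 80.1, 45.2 and 44.6 CPM in total RNA and 294, 289 and 179 CPM in heavy polysomes (log2 ratio 2.17 ± 0.37, adjusted p = 0.0152). The 2 called lower were the catalytic polymerase subunits Pola1 and Pole, at -1.60 and -1.57, with a coding sequence of 4398 nt in Pola1. Mitosis genes had 2 of 28 called higher (7.14%, near the 7.69% of all genes) and none lower (median 0.64). Their median was 0.08 without the 50 nM heavy library. Without the 50 nM total library it was 1.92 with 14 called higher, where 2686 of all 13107 genes were called higher. Cdk1, the mitotic kinase, had 214, 69.1 and 68.6 CPM in total RNA and 849, 735 and 407 CPM in heavy polysomes (log2 ratio 2.502 ± 0.56, adjusted p = 0.0246). Mki67, the proliferation marker, was at -2.43 and was not called.

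The other genes with the highest ratios named by rule were of varied function. Gsta4, a glutathione transferase for lipid aldehydes (chr9:78182774-78209349), had 64, 7.54 and 8.93 CPM in total RNA and 385, 155 and 731 CPM in heavy polysomes. Its groups did not overlap, which the rule required, and its log2 ratio was 3.98 ± 1.01 (adjusted p = 0.0356). Lcn2, a secreted iron-siderophore binder, had a log2 ratio of 3.66 ± 0.84, with 0.87 in the 50 nM pair and 4.86 in the tagged libraries. Tubb3, a beta-tubulin, had 0.813, 0.489 and 0.713 CPM against 9.44, 3.01 and 4.98 CPM (log2 ratio 3.10 ± 0.57, adjusted p = 0.0165). Prdx4, a peroxiredoxin of the endoplasmic reticulum, rose from 110, 41.2 and 40.6 to 448, 426 and 293 CPM (log2 ratio 2.60 ± 0.48, adjusted p = 0.0166). H2-DMb2, Nmral1 and Crabp1 had log2 ratios of 2.57, 2.45 and 2.45. The coding sequences of these genes ran from 414 nt in Crabp1 to 1353 nt in Tubb3.

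For genes of the amino acid response the 3 pairs of libraries went in different directions. On the list of Atf4 targets and amino acid response genes, 34 of 37 tested genes were above 0 in the 50 nM pair and 35 of 37 were below 0 in the tag 2 pair. The median log2 ratio was 1.32 in the first, -1.22 in the second and 0.44 between tags 4 and 3. Over all 6 libraries the median was 0.22, none was called higher and 2 were called lower (5.41%, against 10.6% of all genes). Leaving out 1 library at a time moved the median between -0.23 and 0.52. With the 50 nM total library and the tag 2 heavy library both left out, 8 were called higher and 3 lower (23.8% and 25.2% of all genes there), with a median of 0.27.

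**Figure D4:**
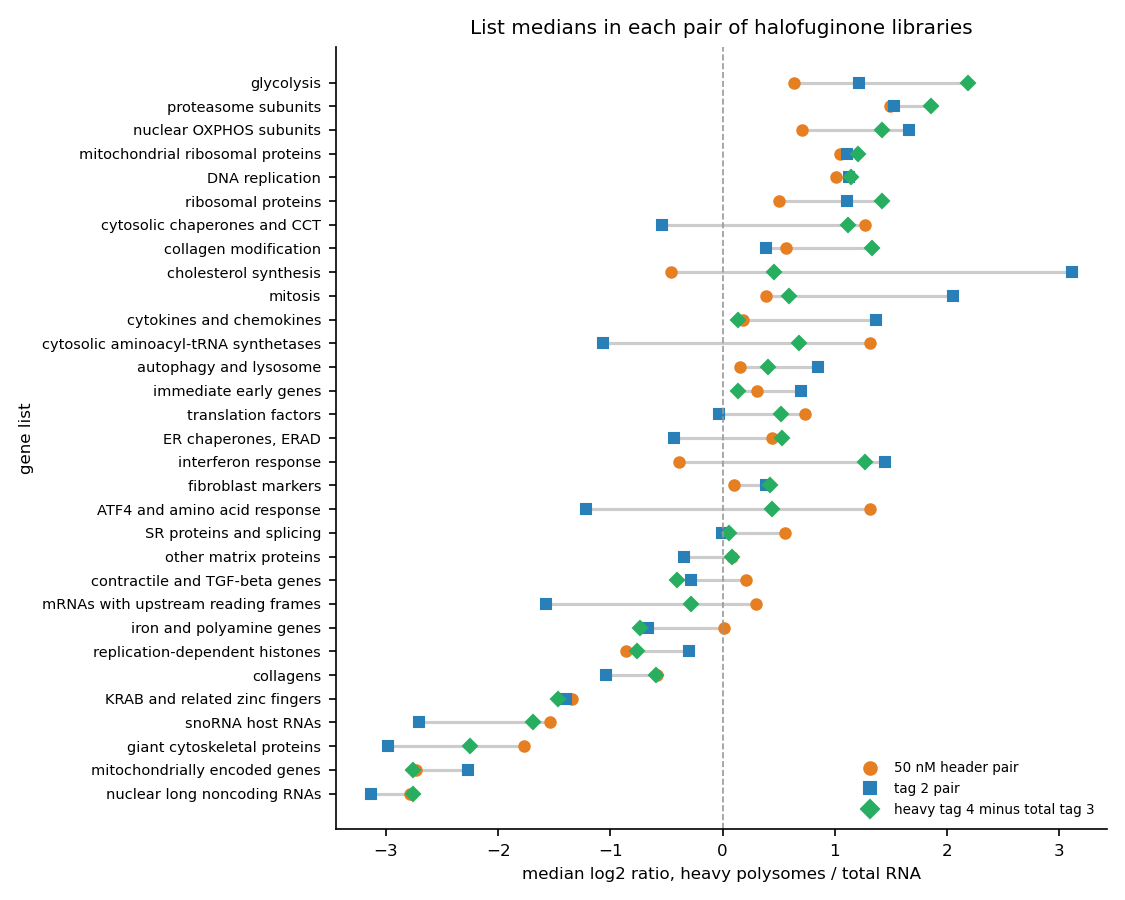
Median log2 ratio of heavy polysomes to total RNA (horizontal axis) of each gene list (vertical axis) in the 50 nM pair (orange circles), the tag 2 pair (blue squares) and heavy tag 4 minus total tag 3 (green diamonds); grey lines join the lowest and highest. The Atf4 and amino acid response list runs from 1.32 in the 50 nM pair to -1.22 in the tag 2 pair, while the proteasome list lies between 1.49 and 1.86.

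Trib3, a pseudokinase that restrains Atf4, shows this in its levels: 26.4, 207 and 195 CPM in total RNA and 293, 77.9 and 740 CPM in heavy polysomes. The 50 nM total library and the tag 2 heavy library are the low ones, the groups overlapped, and the log2 ratio was 1.37 ± 0.93 (adjusted p = 0.321). Atf4 itself had 425, 557 and 536 CPM in total RNA and 711, 476 and 1897 CPM in heavy polysomes (log2 ratio 1.02 ± 0.52, adjusted p = 0.193). Its ratio was 0.74 in the 50 nM pair, and the tag 2 heavy library lay below the tag 2 total library. Asns, asparagine synthetase, had 215, 392.2 and 376 CPM against 859, 227 and 970 CPM (1.06 ± 0.55, adjusted p = 0.2). Ddit3, the CHOP transcription factor, had 73.9, 493 and 468 CPM against 105, 39.6 and 661 CPM (-0.36 ± 1.05, adjusted p = 0.831).

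Slc7a3 and Slc38a2, which carry cationic and small neutral amino acids into the cell, were the 2 members called lower. Slc7a3 had 2.32, 5.79 and 6.94 CPM in total RNA and 0.16, 0.312 and 0.072 CPM in heavy polysomes, without overlap (log2 ratio -4.70 ± 0.71, adjusted p = 0.0136). Slc38a2 had a log2 ratio of -1.15. Of 15 tested mRNAs with regulatory upstream reading frames, none was called (median -0.44, and 0.29, -1.57 and -0.28 in the 3 pairs). At an unadjusted p below 0.05, 1 was higher (Cebpb) and 3 were lower (Ibtk, Mdm2 and Amd1). Atf4 and Cebpb were the 2 members above 0 over all libraries.

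Eprs, the target of halofuginone, had 308, 967 and 994 CPM in total RNA and 240, 84.9 and 447 CPM in heavy polysomes. The groups overlapped and the log2 ratio was -1.55 ± 0.67 (adjusted p = 0.137), with -0.36 in the 50 nM pair and -1.86 in the tagged libraries. Among the 23 cytosolic aminoacyl-tRNA synthetases and partner proteins, 2 were called higher (8.7%, near the 7.69% of all genes) and none lower (median 0.41). Both were scaffold proteins of the multisynthetase complex, Aimp2 (1.78 ± 0.35, adjusted p = 0.0185) and Aimp1 (1.40). Here again 21 of 23 were above 0 in the 50 nM pair and 18 of 23 below 0 in the tag 2 pair.

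For cholesterol synthesis the pairs also differed, with the tag 2 pair high. All 24 tested genes were above 0 in the tag 2 pair, with a median of 3.11, and 18 of 24 were below 0 in the 50 nM pair, with a median of -0.46. None was called over all 6 libraries (median 0.73). Summed, these genes held 3273, 590 and 609 CPM in total RNA and 2473, 3685 and 862 CPM in heavy polysomes. Ebp, a sterol isomerase, was the member with the smallest p (1.78 ± 0.68, adjusted p = 0.102). With the 50 nM total library and the tag 2 heavy library both left out, 9 of 24 were called higher and none lower, at a median of 1.77, in a fit that called 23.8% of all genes higher.

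Among matrix genes the long fibronectin mRNA was low in heavy polysomes. Fn1, with a coding sequence of 7434 nt, had 7103, 8466 and 9159 CPM in total RNA and 2531, 433 and 1585 CPM in heavy polysomes. No heavy library reached the total libraries (log2 ratio -2.44 ± 0.60, adjusted p = 0.0323). Of 30 other matrix genes, which include Fn1, 4 were called lower (13.3%, against 10.6% of all genes) and 1 higher (3.33%, against 7.69%). Their median was -0.15 and ran from -0.46 to 0.72 as 1 library was left out. Vcan and Hspg2, both large proteoglycans, were lower at -2.23 and -2.18. Lum, a small leucine-rich proteoglycan, was the member called higher (2.81 ± 0.61, adjusted p = 0.023), from 0.188 to 0.407 CPM in total RNA to 1.39 to 3.61 CPM in heavy polysomes.

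Collagens are long proteins rich in proline. Of 20 tested, 1 was called lower (5%, against 10.6% of all genes) and none higher, with a median of -0.94. Without the 50 nM total library 4 were called higher and 1 lower (median -0.48), where 2686 and 2694 of all 13107 genes were. In the 4 tagged libraries it was 3 and 3 (median -0.80), against 17.6% and 18.2% of all genes there. With both libraries near the vehicle levels left out it was 4 and 1 (median -0.20), against 23.8% and 25.2%. Col4a5, a basement membrane chain, was the one called, at 113, 81 and 84.3 CPM in total RNA and 54.9, 31.6 and 35.9 CPM in heavy polysomes (log2 ratio -1.19 ± 0.31, adjusted p = 0.0378). Col1a1 had 791, 426 and 446 CPM in total RNA and 1088, 161 and 464 CPM in heavy polysomes, and Col1a2 3173, 1627 and 1667 CPM against 2548, 800 and 1929 CPM. For both the groups overlapped, with log2 ratios of 0.04 ± 0.64 (adjusted p = 0.968) and -0.29 ± 0.49 (adjusted p = 0.697). Col3a1, with 34.8, 7.79 and 8.63 CPM in total RNA and 145, 12.4 and 62.1 CPM in heavy polysomes, had a ratio of 2.10 ± 0.92 (adjusted p = 0.143). Of 23 collagen-modifying genes 2 were called higher (8.7%, near the 7.69% of all genes). They were Fkbp7, a prolyl isomerase of the endoplasmic reticulum (2.27 ± 0.54, adjusted p = 0.0296), and Crtap (1.55). Ltbp2 and Sulf1, a latent TGF-beta binding protein and a heparan sulfatase, were not called (-0.35 ± 0.85 and 1.04 ± 1.00, adjusted p = 0.799 and 0.486).

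Of 26 contractile and TGF-beta genes, 5 were called lower (19.2%, against 10.6% of all genes) and 2 higher (7.69%, the share of all genes). The non-muscle myosin heavy chains Myh9 and Myh10 were among the former and tropomyosin 2 among the latter. Myh10, with a coding sequence of 5931 nt, had 245, 291 and 302 CPM in total RNA and 86.3, 47.4 and 101 CPM in heavy polysomes, without overlap (log2 ratio -1.84 ± 0.35, adjusted p = 0.0172). Tpm2 had 143, 53.9 and 52.8 CPM against 705, 240 and 218 CPM (2.22 ± 0.62, adjusted p = 0.0464). Acta2, smooth muscle actin, had 336, 29.8 and 30.5 CPM in total RNA and 5191, 167 and 219 CPM in heavy polysomes. The 50 nM pair was far above the tagged libraries in both pools and the groups overlapped, so that a log2 ratio of 3.82 ± 1.62 was not called (adjusted p = 0.133). In the 4 tagged libraries alone it was 2.71 (adjusted p = 0.0156).

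Smaller lists gave few calls. Ier2 was the immediate early gene called higher (1.19 ± 0.27, adjusted p = 0.0262) and Klf6 the one called lower (-1.61 ± 0.39, adjusted p = 0.0298) of 24. Ptgs2, the inducible cyclooxygenase, had 25.2, 190 and 177 CPM in total RNA and 26.6, 11.1 and 22.1 CPM in heavy polysomes. It was called lower (-2.71 ± 0.74, adjusted p = 0.0426) although the 50 nM pair stood at 0.08. Hif1a and both ferritin chains, Fth1 and Ftl1, whose translation depends on iron or oxygen, were lower, at -1.27, -1.03 and -1.06. B2m was higher among interferon genes (1.23), Ctsz among lysosomal genes (1.64), and Creld2 among chaperones of the endoplasmic reticulum (1.51). Nbr1, an autophagy receptor, was lower (-1.14). Dnajb1 was higher among cytosolic chaperones (1.41). Of 7 tested replication-dependent histone genes none was called (median -0.72). Their summed level was only 17.2 to 44.4 CPM in a library, and with no filter the median of 48 such genes was 0.87. Amd1, of polyamine synthesis, was not called (-0.98 ± 0.38, adjusted p = 0.11). Vwf, the endothelial marker, was lower (-2.97 ± 0.69, adjusted p = 0.0276), and Fabp4 was not called (1.52 ± 0.91, adjusted p = 0.264).

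The same comparison in vehicle cells, which by label shares no library with this one, showed the background without the drug. There, 6020 of 12689 genes were called (47.4%). Across 12273 genes tested in both treatments, the log2 ratios had a Pearson correlation of 0.92, as a description over genes, and 88.3% had the same sign. Of 2263 genes called with halofuginone and tested in vehicle, 2206 were called there in the same direction and none in the opposite one. List medians in vehicle were 1.52 for the proteasome, 1.10 for mitochondrial ribosomal proteins, -2.27 for the giant proteins, -2.91 for the nuclear noncoding RNAs and -1.29 for zinc finger genes. Other lists stood further apart: snoRNA host RNAs were at -1.02 in vehicle and -1.74 with halofuginone, and mitochondrially encoded genes at -3.12 and -2.45. Atf4 targets were at 0.79 and 0.22, and glycolysis at 0.69 and 1.52. Histones were at 0.76 over 4 tested genes in vehicle and -0.72 over 7 with halofuginone, so these medians cover different genes. The Spearman correlation with coding length was -0.47.

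**Figure D5:**
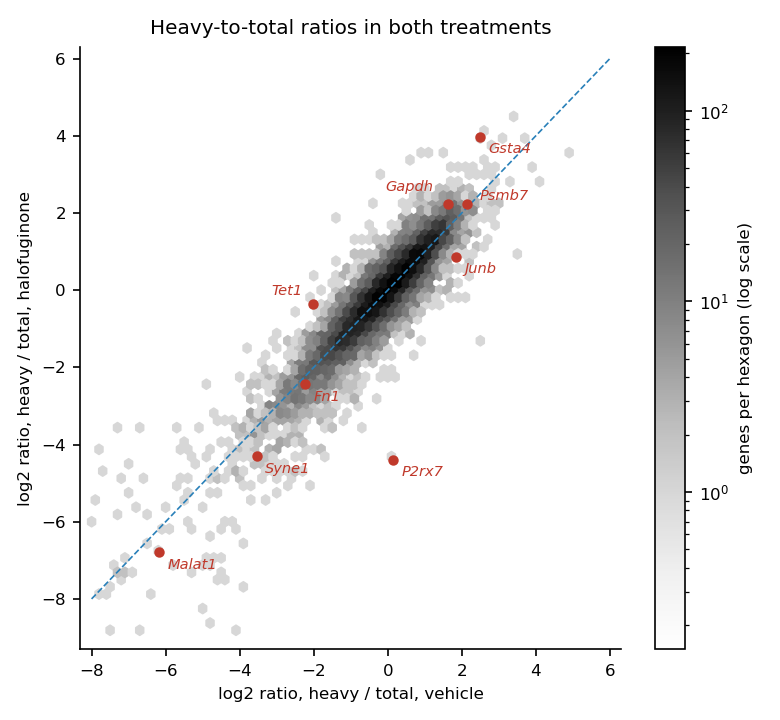
Log2 ratio of heavy polysomes to total RNA in halofuginone cells (vertical axis) against vehicle cells (horizontal axis), with hexagons shaded by the number of genes on a log scale, the dashed line of equal ratios and 9 named genes in red. Most genes lie near the line, such as Psmb7 at 2.23 and 2.14, while P2rx7 lies at -4.40 with halofuginone and 0.15 with vehicle.

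The difference of the ratio between treatments was tested in the 12 libraries of both. These include the 50 nM total and tag 2 heavy libraries under their labels, which may be wrong. Of 13459 genes, none (0%) passed the adjusted threshold of edgeR's test, 128 had an unadjusted p below 0.05 (39 above and 89 below vehicle), and DESeq2 called 1. Without the 50 nM total library 3 genes passed and 2172 had an unadjusted p below 0.05. The median standard error of a gene's difference was 0.48 on the log2 scale, so that the interval of a single gene is wide and the test does not show that the ratios were alike. P2rx7, an ATP-gated channel, had the largest difference among the genes named by rule, at -4.57 ± 1.02 (unadjusted p = 0.000759, adjusted p = 1). With halofuginone its total RNA held 2.81, 29.7 and 26.9 CPM and heavy polysomes 0.747, 1.46 and 0.577 CPM. The 50 nM total library was the low one. Il18bp, Hist1h1c and Junb also lay below vehicle, by -2.17, -1.58 and -1.03, and Tet1, Sema3c, Zfp101 and Magi1 above it, by 1.64, 1.39, 1.09 and 1.04. For all 7 the adjusted p was 1. Of the 15 snoRNA host RNAs, 7 had an unadjusted p below 0.05 for the difference (median difference -1.14), and none passed the adjusted threshold.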

How the data were processed

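Polysome pools of NIH/3T3 cells were sequenced by the submitters as poly(A)-selected, strand-marking libraries. The authors deposited whole-number read counts per gene for 49568 gene symbols in 24 libraries. Per the submitters' processing notes, the build was GRCm38.p5 and the tools were featureCounts from Subread 1.5.0p3, the aligner STAR 2.5.2b and the trimmer Trimmomatic 0.36. How strand and multi-mapping reads were handled is not given in the sources used here, so values of genes with near-identical copies or antisense partners are uncertain.

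Columns were tied to treatment and pool by their headers, and not to single samples. Counts of the 6 libraries were tested with edgeR 4.0.16 in R 4.3.3 (filterByExpr, TMM scaling, quasi-likelihood F test, Benjamini-Hochberg threshold of 0.05), without pairing. Every adjusted p in the text comes from this test. A called gene is one below the threshold, a log2 ratio is heavy polysomes minus total RNA, and its standard error is the ratio divided by the square root of F. CPM are TMM-scaled unless stated. The pair ratios use log2 CPM with a prior count of 2. The total of 16184418 to 24970047 counts per library sets the precision of rare transcripts. Vehicle libraries were fitted in the same way, and the difference between treatments as an interaction over 12 libraries. Coding length, GC content and coordinates come from GENCODE M21 on GRCm38, principal isoforms, matched by symbol for 12295 of the 12595 genes tested.

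Named genes included 12 chosen genes and the 8 largest called ratios in each direction. The latter needed at least 5 CPM in a group, no count of 0 and no overlap between groups. The rule also named 1 called member per list and direction. Under like limits it took, in each direction, the 4 genes with the smallest p for the difference between treatments. Predicted genes, RIKEN clones and pseudogenes were left out of the largest ratios and of the differences. Other names were added after their values were seen. The comparison and the gene lists were chosen with earlier results of these data known. The code was tested on simulated data. Alternatives were DESeq2 1.42.0, other scalings and filters, a covariate for the library set, a replicate block, all 12 halofuginone libraries, and leaving out each library. Summing the near-identical total libraries, and leaving out both libraries near the vehicle levels, were added after the data were seen.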

Additional observations from a re-analysis of the deposited data

How the results depend on the processing

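Calls of the halofuginone comparison numbered 3753 with DESeq2, 3503 with the library set as a covariate, 4607 in the tagged libraries alone, 46 with the near-identical total libraries summed as 1, 6290 with the 50 nM total and tag 2 heavy libraries left out, and 0 to 5380 with 1 library left out. With the tags as a replicate block (4 libraries in 2 pairs) edgeR called 0 genes (1879 at an unadjusted p below 0.05) with halofuginone and 3863 with vehicle. Deviations from the group means correlated at 0.26 in the untagged 50 nM pair and at -0.37 in the tag 2 pair, while the tag 2 heavy library correlated at 0.37 with the 50 nM total library. The headers hold 1 shared tag, and these values do not establish a pairing. The difference between treatments gave 1 gene with DESeq2, 1 with no filter, and 0 to 3 with 1 library left out. Of the 2307 called genes, none changed sign where it was tested, in fits that share libraries with the one that called them. Tested were 1889 under the stricter filter, 2288 with all 12 halofuginone libraries and 2297 without mitochondrially encoded genes.

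Ratios near 0 changed sign. Col1a1 was -0.25 scaled to library totals, -0.0129 with the stricter filter, -0.17 with the set covariate, -0.45 in the tagged libraries, -0.47 with the replicate block, -0.0631 with all 12 halofuginone libraries and -0.12 with the summed totals. Sema3c was -0.19 scaled to totals, -0.0483 with all 12 libraries and -0.14 with the summed totals, Hist1h1c -0.0592 scaled to totals and Magi1 0.0477 in the tagged libraries. With both libraries near the vehicle levels left out, Col1a2 was 0.42, Ltbp2 0.78, Magi1 0.25 and Hist1h1c -0.43. With 1 library left out, ranges were -2.21 to 0.18 for Ddit3, -0.81 to 0.51 for Col1a1, -0.64 to 0.10 for Col1a2, -1.87 to 0.44 for Ltbp2, -0.61 to 2.11 for Sulf1, -0.21 to 0.45 for Sema3c, -0.38 to 0.19 for Magi1 and -0.16 to 0.32 for Hist1h1c. The cause was not tested.

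With 3 libraries a group, of which 2 total libraries are nearly alike, the adjusted p values rest on little independent spread. Of 52 called genes named by rule, 9 were still called without the tag 2 or the tag 3 total library, 33 without the tag 2 heavy library and 0 without either other heavy library. Ratios of transcripts under 1 CPM rest on few counts.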
